A study of Mus musculus with 20 samples.

Results

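The interleukin 6 family was followed through 10 genes chosen by name: the receptor genes Il6ra, Il6st, Lifr, Osmr and Cntfr, the ligand genes Cntf and Lif, and the signalling genes Jak1, Stat3 and Socs3. Probe sets that carry the single symbol of the gene were used, which left 9 of the 10 genes with 10 probe sets, out of 22180 genes tested and 41345 probe sets in all. Socs3 has 2 such probe sets, and the other 8 genes have 1 each. Cntf shares its probe set 17363107 with Zfp91 and Gm44505, so its values are not given. The family was put forward with Dex effects of these data known, among them that of Il6ra in Cx30GRko mice. The Dex effects of the members are therefore descriptions without a test.

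RNA came from the spinal cord of C57BL/6J mice aged 6 to 10 weeks, with 1 array per sample and 5 arrays in each of 4 groups: Cx30GRko Dex, Cx30GRko saline, control Dex and control saline. Cx30GRko mice (titled Tg) lack the glucocorticoid receptor by Cre recombination in cells that, going by the name, express connexin 30, a gap junction protein of astrocytes. The study chose the spinal cord as the tissue where recombination was most efficient, and of the Cre driver only that name is given. The controls are titled wt, and what alleles they carry is not given in the sources used here. Mice of both genotypes received dexamethasone (Dex, an agonist of the receptor, at 4 mg/kg into the peritoneum) or saline 4 h before the cord was taken. Nothing states that animals were pooled. The RNA is that of the cord and not of sorted cells, so fewer cells of a type and less RNA per cell cannot be told apart in any value below.

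Interleukin 6 binds the receptor encoded by Il6ra, and the pair then engages gp130, the product of Il6st, a signalling chain that most cytokines of the family share. Leukaemia inhibitory factor (Lif) and ciliary neurotrophic factor (Cntf) use gp130 with the chain encoded by Lifr, Cntf with the help of the lipid-anchored Cntfr, and oncostatin M uses gp130 with Osmr. The kinase Jak1 on these chains phosphorylates the transcription factor Stat3, and Stat3 induces Socs3, which blocks the receptor complex. In the spinal cord this pathway is best known for its part in the astrocyte response to injury.

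The start of Il6ra and that of Socs3 are shown because Il6ra, described below, had the largest Dex effect and Socs3 is the feedback target of Stat3. The sequences are the 250 bases before the annotated start in RefSeq (build GRCm38.p6), written 5′ to 3′ on the strand of the gene, and capitals mark the match to the STAT palindrome.
Il6ra, chr3:89913197-89913446, minus strand: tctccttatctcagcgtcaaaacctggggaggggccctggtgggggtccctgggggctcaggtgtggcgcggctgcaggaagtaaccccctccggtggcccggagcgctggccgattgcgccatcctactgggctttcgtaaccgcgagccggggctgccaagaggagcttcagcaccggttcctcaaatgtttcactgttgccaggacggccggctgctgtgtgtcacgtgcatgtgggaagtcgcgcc
Socs3, chr11:117969367-117969616, minus strand: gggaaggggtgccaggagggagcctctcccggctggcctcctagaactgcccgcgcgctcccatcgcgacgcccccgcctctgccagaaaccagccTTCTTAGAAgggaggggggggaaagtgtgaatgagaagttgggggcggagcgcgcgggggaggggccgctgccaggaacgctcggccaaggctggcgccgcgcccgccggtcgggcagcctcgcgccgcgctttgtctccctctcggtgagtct
The search covered 300 bases around the start, with 50 of them after it, in 16 promoters of the 10 genes. The glucocorticoid response element was searched as GNACA and TGTNC with 3 bases between them, which reads the same on both strands, and had no match in these promoters, against 0.475% of all 32851 promoters. The STAT palindrome TTCNNNGAA, also the same on both strands, matched 1 of the 16, that of Socs3 at TTCTTAGAA, beginning 154 bases before the start, against 8.3% of all promoters. With no match to the first motif, no overlap between them arose. A match is a description of letters, and its absence says only that they are not in this window.

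All values are log2 signals, whose precision depends on how many arrays there are and on their spread. The deposited values form 2 sets of arrays with the same mean for every probe set, replicates 1 to 3 (12 arrays) and replicates 4 and 5 (8 arrays). Residual SDs had a median over genes of 0.21 in the first set and 0.37 in the second. Cx30GRko Dex replicates 4 and 5 stood apart: over the probe sets their SDs were 1.95 and 1.81, and those of the other 6 arrays of their set 1.66 to 1.71. Nr3c1, the receptor gene itself, averaged 6.59 ± 0.70 in Cx30GRko Dex, 6.19 ± 0.21 in Cx30GRko saline, 6.22 ± 0.08 in control Dex and 6.21 ± 0.50 in control saline arrays (SD, n = 5 each). Whether its probes lie in the removed part is not known, so Nr3c1 checks the genotype labels little. None of the 12 astrocyte, 7 oligodendrocyte and 11 neuron markers measured lay below the median signal of all probe sets, whereas 9 of 11 neutrophil and monocyte markers and 6 of 7 lymphocyte markers did.

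Il6ra, the receptor chain that binds interleukin 6, had the largest Dex effect of the 9 genes. Its log2 signal from replicate 1 to 5 was 5.77, 5.97, 6.12, 5.87 and 6.67 in Cx30GRko Dex arrays, against 5.07, 5.23, 4.96, 5.26 and 5.18 in Cx30GRko saline arrays. In control mice it was 6.07, 6.13, 5.79, 5.18 and 5.68 in Dex arrays, against 5.27, 5.20, 5.57, 5.15 and 5.77 in saline arrays. All 5 Cx30GRko Dex arrays lay above all Cx30GRko saline arrays, as they did for 1.05% of all genes, while in control mice replicates 4 and 5 of the Dex group fell inside the range of the saline group. The Il6ra means were 6.08 ± 0.35 in Cx30GRko Dex and 5.14 ± 0.12 in Cx30GRko saline arrays, and 5.77 ± 0.38 in control Dex and 5.39 ± 0.27 in control saline arrays (SD, n = 5 each).

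The difference of Il6ra between Dex and saline was 0.94 ± 0.19 log2 in Cx30GRko mice (SE), 1.92-fold, and 0.38 ± 0.19 in control mice, 1.30-fold. The mean of these effects was 0.66 ± 0.13, 1.58-fold, and 9 of 10 Dex arrays lay above the saline mean of their genotype and array set. In replicates 1 to 3 the 6 Dex arrays, at 5.77 to 6.13, lay above the 6 saline arrays, at 4.96 to 5.57, a separation upward that 0.685% of all genes had. There the Dex effect of Il6ra was 0.87 in Cx30GRko and 0.65 in control mice. In replicates 4 and 5 it was 1.05 in Cx30GRko and -0.02 in control mice.

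In limma's fit across all genes Il6ra was the 1 member of 9 called for the mean Dex effect, where 0.149% of all genes were called (33 genes, with 0.131% called higher). No member was called in Cx30GRko mice, where 0.018% of genes were, or in control mice, where 0.0135% were. At an unadjusted p under 0.05 there were 2 members in Cx30GRko mice (9.73% of all genes), 0 in control mice (5.16%) and 3 for the mean effect (8.64%). Since these are the contrasts in which the family was noticed, nothing is read from the counts. The mean Dex effect of Il6ra was 0.59 to 0.73 over the 20 fits that left out 1 array, and 0.60 without Cx30GRko Dex replicates 4 and 5. The count of members called was 1 in 4 of those 20 fits (without Cx30GRko Dex replicate 1 or 4, control Dex replicate 4 or control saline replicate 5) and 0 in the others, which limits the count and tests nothing.

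Il6ra is made by microglia, monocytes and neutrophils among other cells. The summed level of the microglia and macrophage markers, as the mean of 10 centred log2 values, ranged from -0.07 to 0.09 in Cx30GRko Dex and from -0.36 to 0.02 in Cx30GRko saline arrays, and from -0.08 to 0.25 in control Dex and from -0.04 to 0.13 in control saline arrays. Of these 10 markers 8 were higher with Dex in Cx30GRko mice, with a median of 0.15, and 5 in control mice, with a median of 0.00. On average over both genotypes 6 were higher, with a median of 0.06. That of the 11 neutrophil and monocyte markers ranged from -0.41 to 0.20 in Cx30GRko Dex, -0.18 to 0.04 in Cx30GRko saline, -0.14 to 0.21 in control Dex and -0.13 to 0.49 in control saline arrays, and 2 of the 11 were higher with Dex, with a median of -0.16. Neither list had a member called for Dex, and the part of these cells in the value of Il6ra was not tested.

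**Figure D1:**
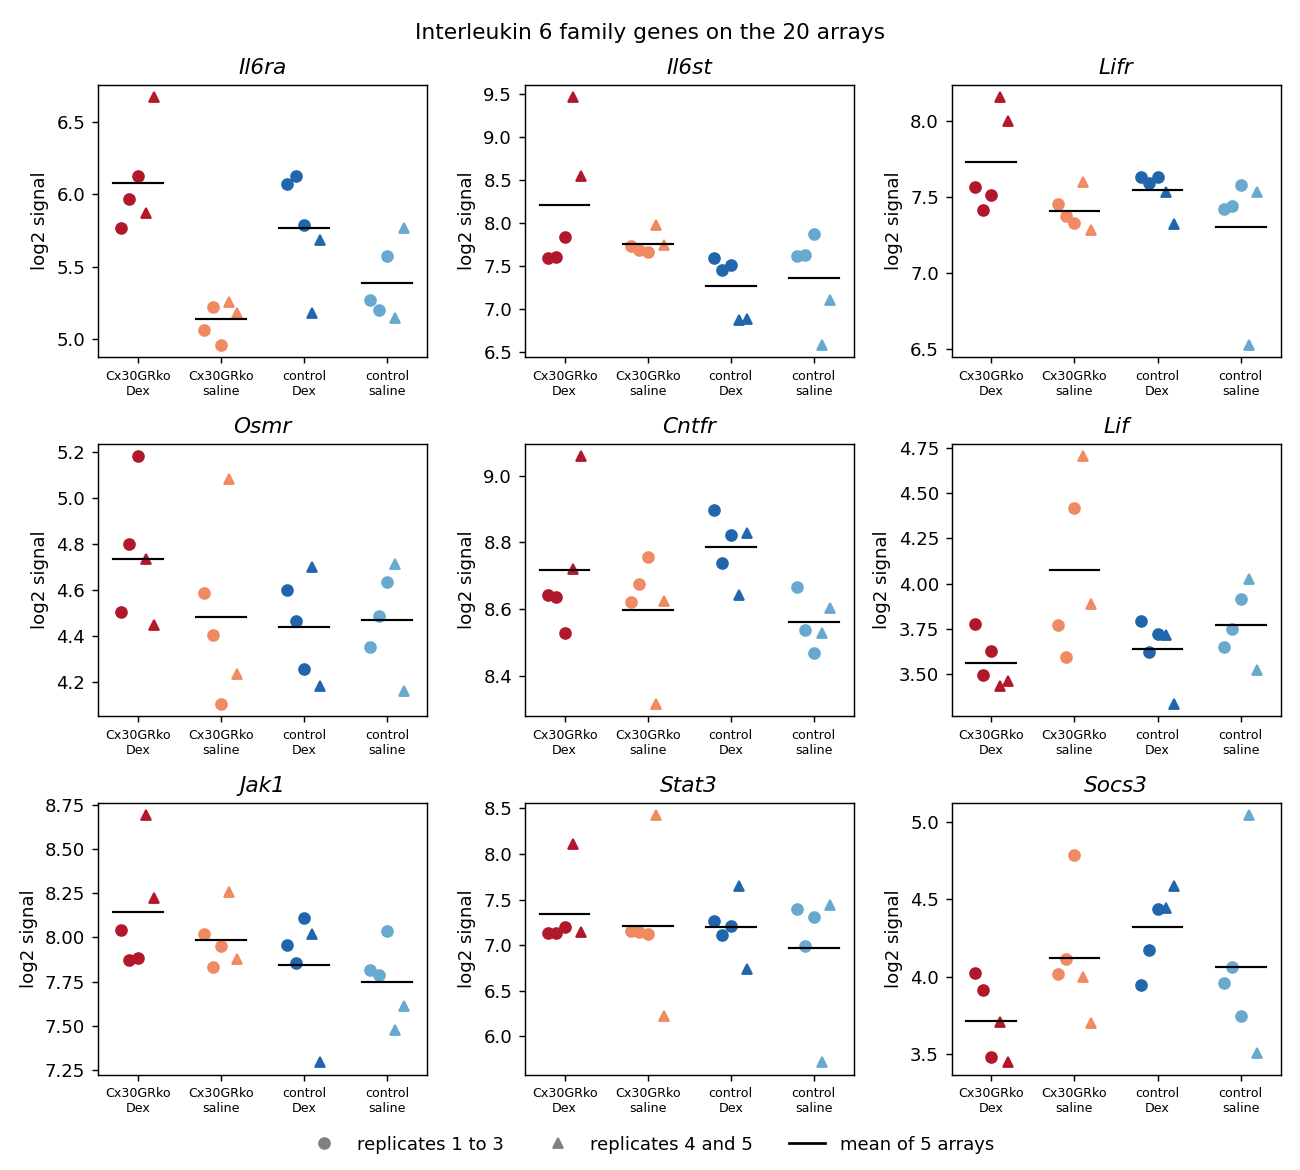
Log2 signal (y axes) of the 9 measured interleukin 6 family genes in Cx30GRko Dex, Cx30GRko saline, control Dex and control saline arrays (x axes). Each point is 1 array, circles are replicates 1 to 3, triangles are replicates 4 and 5, and lines are means of 5 arrays; for Il6ra all 5 Cx30GRko Dex arrays lie above all 5 Cx30GRko saline arrays, and for Stat3 the circles lie between 6.99 and 7.40 while the triangles run from 5.71 to 8.43.

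Il6st, the gene of the shared chain gp130, had values that separated by genotype in replicates 4 and 5 but not in replicates 1 to 3. Its log2 signal from replicate 1 to 5 was 7.60, 7.61, 7.84, 9.46 and 8.55 in Cx30GRko Dex arrays, against 7.73, 7.69, 7.67, 7.98 and 7.75 in Cx30GRko saline arrays. In control mice it was 7.60, 7.46, 7.52, 6.87 and 6.89 in Dex arrays, against 7.62, 7.63, 7.87, 6.59 and 7.11 in saline arrays. In replicates 1 to 3 all 12 arrays lay between 7.46 and 7.87, and in replicates 4 and 5 every Cx30GRko array was above every control array. The Dex effect of Il6st was 0.45 ± 0.29 in Cx30GRko mice (-0.02 on the first array set and 1.14 on the second) and -0.10 ± 0.29 in control mice (-0.18 and 0.03).

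Of the partner chains, Lifr, which joins gp130 for Lif and Cntf, had a Dex effect of 0.32 ± 0.18 in Cx30GRko mice and 0.24 ± 0.18 in control mice. All 10 Dex arrays were above the saline mean of their genotype and array set, yet the groups overlapped in both genotypes. In control replicates 4 and 5 that mean rests on 2 saline arrays, at 6.53 and 7.54. Control Dex replicate 5, at 7.33, lay below the second of these. Over the 20 fits that left out 1 array the Dex effect of Lifr in control mice was 0.05 to 0.31. Lifr ranged from 7.42 to 8.16 in Cx30GRko Dex and from 7.28 to 7.60 in Cx30GRko saline arrays, and from 7.33 to 7.64 in control Dex and from 6.53 to 7.58 in control saline arrays. By array set, its mean Dex effect was 0.13 on the 12 arrays and 0.52 on the 8.

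Osmr, the oncostatin M chain, showed a Dex effect of 0.25 ± 0.18 in Cx30GRko mice and -0.03 ± 0.18 in control mice. Its values ran from 4.45 to 5.18 in Cx30GRko Dex and from 4.11 to 5.08 in Cx30GRko saline arrays, and from 4.18 to 4.70 in control Dex and from 4.16 to 4.71 in control saline arrays. The ranges of Osmr overlapped in all 4 groups. Markers of meningeal fibroblasts, cells of the coverings of the cord, moved with Osmr on some arrays and not on others. In replicate 3 Osmr was 5.18 in Cx30GRko Dex, 4.11 in Cx30GRko saline, 4.26 in control Dex and 4.64 in control saline arrays. On the same arrays the mean centred log2 level of the 9 markers was 0.98 in Cx30GRko Dex, -0.98 in Cx30GRko saline, -1.10 in control Dex and 0.79 in control saline. In Cx30GRko saline replicate 4, by contrast, Osmr was 5.08 and the marker level -0.63. They were 4.70 and -0.39 in control Dex replicate 4. In replicate 1 Osmr was 4.51 in Cx30GRko Dex and 4.59 in Cx30GRko saline, with marker levels of -1.03 and 0.29. Over all arrays that level ranged from -1.03 to 0.98 in Cx30GRko Dex, -0.98 to 0.29 in Cx30GRko saline, -1.10 to 0.31 in control Dex and -0.13 to 0.79 in control saline arrays. With Dex, 8 of the 9 markers were higher in Cx30GRko mice (median 0.37) and 1 of 9 in control mice (median -0.51), with none called. Their part in the values of Osmr was not tested.

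Cntfr, which binds Cntf, was the steadiest of the 9 genes, with a residual SD of 0.14 that was lower than that of all but 1.72% of genes. Its signal from replicate 1 to 5 was 8.64, 8.64, 8.53, 8.72 and 9.06 in Cx30GRko Dex, against 8.62, 8.67, 8.76, 8.32 and 8.63 in Cx30GRko saline arrays. In control mice it was 8.90, 8.74, 8.82, 8.64 and 8.83 with Dex, against 8.67, 8.54, 8.47, 8.53 and 8.60 with saline. Of the control Dex arrays 1, replicate 4, lay within the saline range. The Dex effect of Cntfr was 0.12 ± 0.12 in Cx30GRko mice (-0.08 on the first array set, 0.42 on the second) and 0.22 ± 0.12 in control mice (0.26 and 0.17). In replicates 4 and 5 the 4 Dex arrays lay above the 4 saline arrays for Cntfr, as they did for 1.9% of all genes.

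Lif, the ligand gene, had a probe set with a mean signal of 3.76, below the median of 4.34 over all probe sets. From replicate 1 to 5 its signal was 3.78, 3.50, 3.63, 3.43 and 3.46 in Cx30GRko Dex arrays, against 3.77, 3.59, 4.42, 4.70 and 3.89 in Cx30GRko saline arrays. It ranged from 3.34 to 3.79 in control Dex arrays, against 3.52 to 4.03 in control saline arrays. The Lif effect of Dex was -0.52 ± 0.18 in Cx30GRko and -0.13 ± 0.18 in control mice, and the groups overlapped in both. Replicates 3 and 4 of the Cx30GRko saline group were the highest of the 20 arrays for Lif.

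Jak1, the kinase bound to the receptor chains, had Dex effects of 0.16 ± 0.18 in Cx30GRko and 0.10 ± 0.18 in control mice. On the first and second array sets Jak1 stood at -0.00 and 0.39 in Cx30GRko and at 0.09 and 0.11 in control mice. It ranged from 7.87 to 8.69 in Cx30GRko Dex, 7.83 to 8.26 in Cx30GRko saline, 7.29 to 8.11 in control Dex and 7.47 to 8.04 in control saline arrays. Stat3, the transcription factor, had Dex effects of 0.13 ± 0.34 in Cx30GRko and 0.23 ± 0.34 in control mice. By array set Stat3 stood at 0.02 and 0.30 in Cx30GRko and at -0.03 and 0.62 in control mice. Without control saline replicate 4 the Dex effect of Stat3 in control mice was -0.09. Its 12 arrays of replicates 1 to 3 lay between 6.99 and 7.40, while the 8 arrays of replicates 4 and 5 spread from 5.71 to 8.43. Stat3 had a residual SD of 0.12 on the first 12 arrays and 1.10 on the other 8.

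Socs3, the feedback inhibitor, was read by a pair of probe sets, both with means below the median of all probe sets (4.05 for 17272619 and 3.68 for 17547600). The brighter probe set, 17272619, gave 4.03, 3.91, 3.48, 3.71 and 3.45 in Cx30GRko Dex arrays, against 4.01, 4.11, 4.78, 4.00 and 3.70 in Cx30GRko saline arrays. In control mice it gave 3.95, 4.18, 4.44, 4.44 and 4.59 with Dex, against 3.96, 4.06, 3.74, 5.04 and 3.51 with saline. Relative to the saline mean of its array set, none of the 5 Cx30GRko Dex arrays and all 5 control Dex arrays were higher. The groups themselves overlapped in both genotypes. In control replicates 4 and 5 that mean rests on saline arrays at 5.04 and 3.51, and the Dex arrays lay below the first. Control Dex replicate 1, at 3.95, lay below control saline replicates 1 and 2, at 3.96 and 4.06. The Dex effect of this probe set was -0.41 ± 0.24 in Cx30GRko and 0.25 ± 0.24 in control mice. The second probe set did not repeat the opposite signs, with Dex effects of 0.03 ± 0.18 in Cx30GRko and 0.32 ± 0.18 in control mice.

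**Figure D2:**
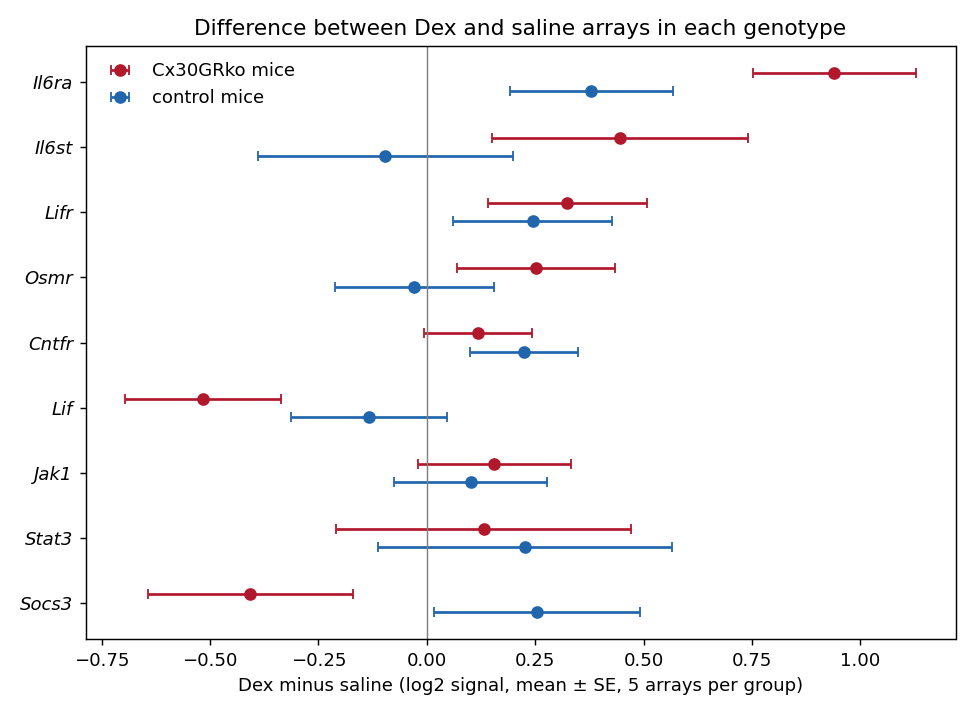
Difference in log2 signal between Dex and saline arrays (x axis) for each measured gene (y axis) in Cx30GRko mice and in control mice. Points are means with SE from limma's fit, 5 arrays per group; Il6ra lies farthest to the right in Cx30GRko mice at 0.94, and Lif farthest to the left at -0.52.

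The members had a median Dex effect of 0.16 in Cx30GRko mice, against 0.02 over all genes. There 7 of 9 were higher with Dex, as were 53.7% of all genes. In control mice the median was 0.22, against 0.01 over all genes, and 6 of 9 were higher, as were 52.3% of all genes. The family was chosen with Dex effects of these data known, so nothing is read from these medians and counts. The pattern over the 20 arrays most like that of Il6ra, by the root mean square difference of centred log2 values, was that of Abcc4, at 0.27. It was followed by Sh2d1a and Ccdc141, at 0.28 each, and A730017L22Rik and Rras2, at 0.29 each, where the median over all genes was 0.54 and a gene with no variation would give 0.45. For Osmr the closest genes were Ano6 (0.18), 2810004N23Rik, Pabpc1, 4930563E22Rik (0.19 each) and Stom (0.20). There a gene with no variation would give 0.28, and the median over all genes was 0.42. For Socs3 they were Efna3, Champ1, Zfp385c, Cipc (0.27 each) and Nelfb (0.28), where these references were 0.42 and 0.53.

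Whether loss of the receptor from connexin 30 cells altered the response was asked with the interaction, the Dex effect in Cx30GRko minus that in control mice. No member passed, and none of the 22180 genes did (0%), while 1 member of 9, Il6ra, and 5.65% of all genes had an unadjusted p under 0.05. The interaction was 0.56 ± 0.27 for Il6ra (95% interval 0.01 to 1.11, limma adjusted p = 0.846, with 0.22 on the first array set and 1.07 on the second). For Socs3 it was -0.66 ± 0.34 (-1.36 to 0.04, adjusted p = 0.846; -0.76 and -0.51 in the same sets), and 0.54 ± 0.42 for Il6st (-0.32 to 1.41, adjusted p = 0.862). The other 6 members had interactions of -0.38 (Lif) to 0.28 (Osmr), with adjusted p of 0.858 to 0.981. The interaction uses the same Cx30GRko arrays in which Il6ra was noticed. In this comparison 9 of 9 meningeal fibroblast markers had positive values, with a median of 0.84, as did 5 of 5 markers of Schwann cells and peripheral roots, with a median of 0.96. Of the 12 astrocyte markers 11 were positive (median 0.27), and of the 10 microglia and macrophage markers 7 (median 0.06). No marker of these lists was called, and their part in the interactions of the members was not tested.

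Genotype itself was compared under each treatment. Both comparisons use Cx30GRko arrays in which Il6ra was noticed, so its values in them are descriptions. Under Dex no member passed and no gene was called (0%), while 2 members, Il6st and Socs3, and 11.2% of all genes had an unadjusted p under 0.05. Il6st stood at 0.94 ± 0.29 in Cx30GRko against control mice (95% interval 0.33 to 1.55, limma adjusted p = 0.423), or 0.16 on the first array set and 2.12 on the second. Socs3 stood at -0.60 ± 0.24 (-1.10 to -0.11, adjusted p = 0.423), with 0 of 5 Cx30GRko Dex arrays above the control Dex mean of their set. Its second probe set gave -0.34 ± 0.18. The other 7 members lay between -0.08 (Lif) and 0.31 (Il6ra). On the first and second array sets Il6ra stood at -0.04 and 0.84, Jak1 at -0.04 and 0.80 and Lifr at -0.12 and 0.65. Stat3 (-0.04 and 0.43) and Cntfr (-0.22 and 0.15) also differed in sign between the sets. Osmr (0.39 and 0.15) and Lif (-0.08 on each) did not.

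Under saline no member passed and no gene was called (0%), while 0 members and 5.25% of all genes had an unadjusted p under 0.05. The largest genotype difference among the members was that of Il6st, at 0.40 ± 0.29 (95% interval -0.21 to 1.01, limma adjusted p = 0.914). Il6ra stood at -0.25 ± 0.19, and none of its 5 Cx30GRko saline arrays was above the control saline mean of its array set. The Dex effect by which Il6ra was noticed uses these same Cx30GRko saline arrays, so nothing is read from that difference. Lif stood at 0.30 ± 0.18 and Jak1 at 0.24 ± 0.18 (adjusted p = 0.914 for both).

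**Figure D3:**
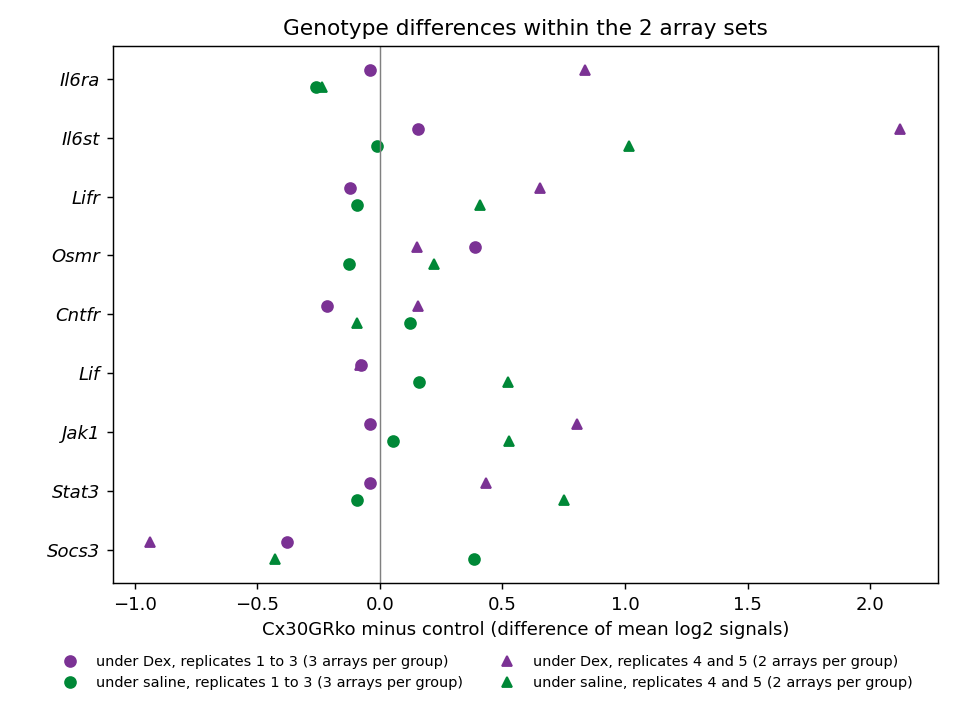
Difference in mean log2 signal between Cx30GRko and control mice (x axis) for each measured gene (y axis), under Dex and under saline, in replicates 1 to 3 (circles, 3 arrays per group) and in replicates 4 and 5 (triangles, 2 arrays per group). Il6st lies at 2.12 under Dex and 1.02 under saline in replicates 4 and 5, and at 0.16 and -0.01 in replicates 1 to 3.

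The split of Il6st between the array sets was tested as the mean genotype difference in replicates 1 to 3 minus that in replicates 4 and 5, a test chosen after its values were seen. That difference for Il6st was 0.07 on the first array set and 1.57 on the second, a gap of -1.50 ± 0.23 (limma adjusted p = 0.00207 over all genes). Il6st was the 1 member called of 9, where 4.58% of all genes were, and it was called in all 20 fits that left out 1 array, with gaps of -1.73 to -1.27. With the saline arrays alone the gap was -1.03 and was not called (adjusted p = 0.268). In replicates 4 and 5 all 4 Cx30GRko arrays lay above all 4 control arrays for Il6st, as they did for 3.22% of all genes. The fit assumes 1 spread for both array sets, which differed.

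The next largest gaps, which did not pass, were those of Socs3 at 0.68 ± 0.34 (limma adjusted p = 0.316), Jak1 at -0.66 ± 0.22 (0.101), Stat3 at -0.66 ± 0.50 (0.574) and Lifr at -0.64 ± 0.23 (0.128). Jak1 passed without control Dex replicate 4 (-0.84, adjusted p = 0.021) or Cx30GRko Dex replicate 5 (-0.78, 0.0349). Lifr (-0.89, 0.00583) and Socs3 (1.07, 0.0209) passed without control saline replicate 5. The same test on the mean Dex effect called 0 of 9 members, against 2.16% of genes, with Il6st nearest at -0.69 ± 0.23 (adjusted p = 0.135). Without Cx30GRko Dex replicate 5 Il6st passed that test as well (-0.91, adjusted p = 0.00915).

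Astrocyte markers, among those of other cells, were high on the Cx30GRko Dex arrays where Il6st was highest. The mean centred log2 level of the 12 astrocyte markers was 0.84 and 0.51 in Cx30GRko Dex replicates 4 and 5, and -0.09 and -0.29 in Cx30GRko saline replicates 4 and 5. On the control arrays of the same replicates it was -0.06 and -0.48 with Dex and -0.29 and -0.13 with saline. Over all arrays it ranged from -0.05 to 0.84 in Cx30GRko Dex, -0.29 to 0.08 in Cx30GRko saline, -0.48 to 0.04 in control Dex and -0.29 to -0.00 in control saline arrays. Of the 12 markers 11 were higher in Cx30GRko Dex than in control Dex arrays, with a median of 0.43 and none called. Markers of other cord cells were high on the same arrays: Cx30GRko Dex replicates 4 and 5 stood at 0.77 and 0.35 for the 7 oligodendrocyte markers and at 0.53 and 0.35 for the 11 neuron markers. The other 18 arrays reached at most 0.15 for oligodendrocytes and 0.16 for neurons. Other lists were low on these 2 arrays, at -0.41 and -0.22 for neutrophils and monocytes, -0.40 and -0.33 for lymphocytes and -1.06 and -0.34 for skeletal muscle, and 9 of 11, 6 of 7 and 3 of 5 of those markers lay below the median signal. Of the oligodendrocyte and neuron markers 6 of 7 and 7 of 11 were higher in Cx30GRko Dex than in control Dex arrays, with medians of 0.25 and 0.18 and none called. The part of these lists in the values of Il6st was not tested.

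The rest of the pathway was read from lists of genes outside the 10. Of the other ligands of the family 8 of 9 were measured, of the other receptor chains and the proteases that shed Il6ra 4 of 5, of the other Janus kinases and STATs 6 of 8, and of the other inhibitors 15 of 15. None of these genes passed in any of the 6 comparisons, higher or lower. For the mean Dex effect the medians of these lists were -0.02, 0.10, 0.14 and 0.02, against 0.02 over all genes. At an unadjusted p under 0.05 they held 0 of 8, 0 of 4, 1 of 6 and 5 of 15 genes for that effect, where 8.64% of all genes did.

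The inhibitors gave the largest of these values. Ptpn11, a phosphatase that docks on gp130, stood at a mean Dex effect of 0.46 ± 0.14 (limma adjusted p = 0.342), above the saline mean in 10 of 10 Dex arrays. Ptpn1, a phosphatase that acts on Janus kinases, stood at -0.49 ± 0.15 (adjusted p = 0.332, with -0.14 on the first array set and -1.02 on the second). Pias2 stood at 0.40 ± 0.15 (adjusted p = 0.503, with 0.06 and 0.91 in the same sets). Among the kinases and factors Stat5b stood at 0.30 ± 0.12 (adjusted p = 0.541), Stat6 at 0.25 ± 0.19 and Stat5a at 0.19 ± 0.13. The ligand gene Il6 stood at -0.09 ± 0.14 (adjusted p = 0.872), Ctf1, the gene of cardiotrophin, at -0.10 ± 0.09, and Ebi3 at 0.08 ± 0.15. Adam10, which can shed Il6ra, stood at 0.13 ± 0.22, Il31ra at 0.21 ± 0.17 and Il27ra at 0.08 ± 0.13.

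Genes known to be induced through Stat3 did not pass either, with 24 of 25 measured and none called in any of the 6 comparisons. Their median for the mean Dex effect was 0.04, with 14 higher and 10 lower. The smallest p were those of Bcl2l1, a survival gene, at 0.44 ± 0.12 (limma adjusted p = 0.263), Cebpd, a transcription factor of the acute phase, at 0.42 ± 0.12 (0.335) and the acute phase gene Saa3 at -0.33 ± 0.17 (0.588). Cebpd was above the saline mean in 10 of 10 Dex arrays. With array weights Bcl2l1 passed (0.48, adjusted p = 0.0132).

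Known targets of the receptor, set beside the pathway, rose in part. Of 14 measured, 6 passed for the mean Dex effect, all higher, where 0.131% of all genes were called higher, and all 14 had positive values with a median of 0.72. They were Cdkn1a at 1.80 ± 0.19, Zbtb16 at 1.19 ± 0.18, Errfi1 at 1.02 ± 0.15, Sgk1 at 1.01 ± 0.13, Ddit4 at 0.83 ± 0.16 and Mt2 at 0.75 ± 0.11. Ddit4 stood at 1.32 on the first array set and 0.10 on the second, and it passed in 9 of the 20 fits that left out 1 array (limma adjusted p of 0.0135 to 0.0816). It failed without any 1 array of replicates 1 to 3 other than control saline replicate 3, while the other 5 targets passed in all 20. This list was drawn up with earlier results of these arrays known and is not independent evidence. The 0.66 of Il6ra lay below that median.

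**Figure D4:**
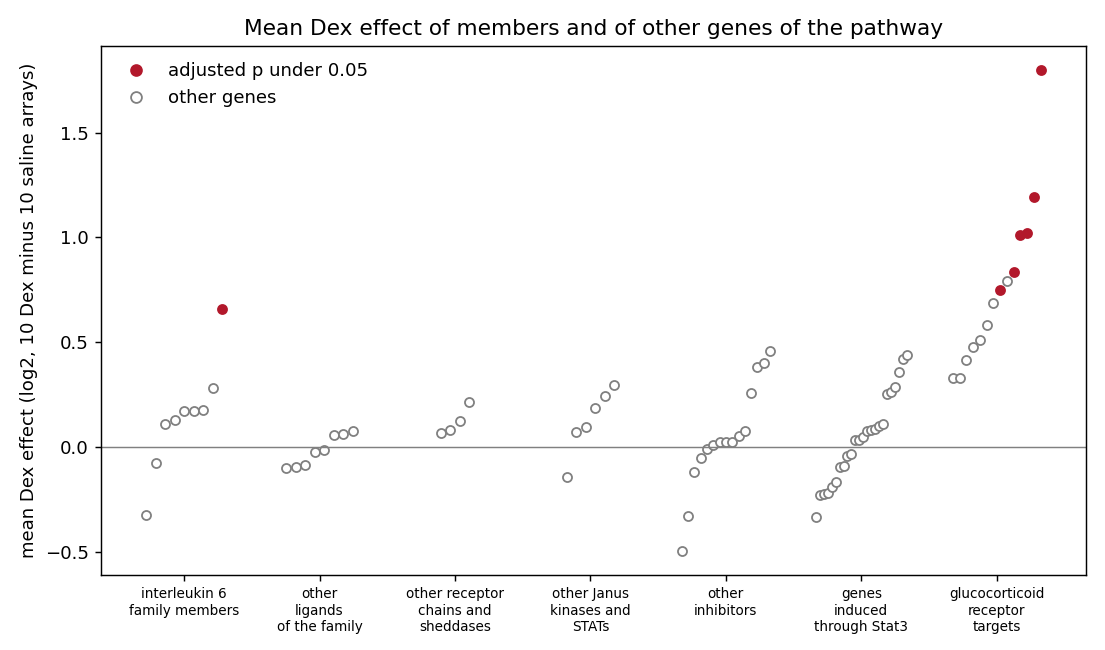
Mean Dex effect on log2 signal (y axis, 10 Dex minus 10 saline arrays) of the 9 members and of the genes of 6 further lists (x axis), ordered by value within each list. Filled points had an adjusted p under 0.05 over all genes; they are Il6ra and 6 receptor targets, and the members' choice used this effect.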

How the data were processed

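RNA was labelled with the Affymetrix/Ambion WT Expression kit, per the labels' protocols, and oligo is named in the submitters' processing notes. Its version, the normalization method, the build and the annotation are likewise not given in the sources used here. What the authors deposited was 1 table of log2 signals, used as it stood. Every array had a mean of 4.64, and per probe set the mean of replicates 4 and 5 equalled that of replicates 1 to 3 (largest difference 4.5e-09). Of 41345 probe sets, 23521 had 1 symbol, 1814 several and 16010 none.

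Per gene, the single-symbol probe set with the highest mean was tested (22180 genes, with no filter on dim probe sets) with limma 3.58.1 in R 4.3.3, as a mean per group over all 20 arrays with no block (16 residual and 5.66 prior degrees of freedom). Equal set means take up 1 degree of freedom that this fit does not count and the array set block does. P-values were two-sided, adjusted by Benjamini-Hochberg over all genes within each of 6 comparisons, with calls at an adjusted p under 0.05. The comparison of array sets used a mean per group and set and was added after the values were seen. The design text gives 5 mice per group, and p-values measure the spread between these arrays. The fit was tested on simulated data.

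The members and lists were chosen with earlier results of these data known. Text names all members, every called gene of the 6 pathway lists and otherwise the 3 with the smallest p for the mean Dex effect, and the 5 genes most like Il6ra, Osmr and Socs3. Alternatives were a replicate block, an array set block, each array set alone, array weights, quantile normalization again, a filter on dim probe sets, all probe sets, only the groups compared, and leaving out arrays. Replicate numbers did not pair the arrays: deviations from group means of same-numbered arrays correlated at -0.31 to 0.04 over genes in 30 pairs. Cntf was not analysed here.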

Additional observations from a re-analysis of the deposited data

Results flagged for a closer look

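Of 40 groups of 5 arrays checked for the members' probe sets, 4 held an array far from the others, and all 4 were replicate 4. Chance flags about 1 in 20 where arrays have equal spread and groups are independent. Here the array sets differed in spread and the members were read on the same arrays, so the count cannot be judged by that rate. Stat3 was 8.11 in Cx30GRko Dex replicate 4, against 7.13 to 7.20 on the other 4 arrays, and 5.71 in control saline replicate 4, against 6.99 to 7.44. Il6st was 7.98 in Cx30GRko saline replicate 4, against 7.67 to 7.75, and Lifr was 6.53 in control saline replicate 4, against 7.42 to 7.58.

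The genotype difference of Il6st differed between the array sets (-1.50 for replicates 1 to 3 minus replicates 4 and 5). Socs3 had Dex effects of opposite sign in the 2 genotypes by the brighter of its probe sets. Its signal was lower in all 5 Cx30GRko Dex arrays and higher in all 5 control Dex arrays than the saline mean of their set. The groups overlapped in both genotypes, and the control saline mean of replicates 4 and 5 rests on arrays at 5.04 and 3.51. The test of the difference between genotypes, the interaction of -0.66, did not pass (limma adjusted p = 0.846), and the second probe set gave -0.29.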

How the results depend on the processing

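Over all alternatives to the 6 comparisons the members were called in none of the values for the interaction, the genotype differences or the Dex effect in control mice. The mean Dex effect of Il6ra stayed between 0.51 and 0.76. The family was chosen on the Dex effects, so the counts of members called for them describe the fits and are no measure of stability. For the mean Dex effect that count, 1 in the fit reported, was 0 with a replicate block, an array set block, replicates 4 and 5 alone, all 41345 probe sets kept or without Cx30GRko Dex replicates 4 and 5, and 1 with the 23521 single-symbol probe sets kept (added after the values were seen). With array weights it was 1 in Cx30GRko mice. Of all the members' values under these alternatives, 7 of 259 changed sign for the mean Dex effect and 18 of 259 for the interaction. The Dex effect changed sign in 12 of 268 values in Cx30GRko mice and 11 of 268 in control mice. The genotype difference did so in 12 of 268 values under Dex and 19 of 268 under saline. Many of these fits left out only 1 array, so these shares are no measure of stability. In replicates 1 to 3 alone Il6st, Lifr, Osmr and Stat3 changed sign for genotype under saline, and in replicates 4 and 5 alone Cntfr and Socs3 did. For the interaction Lifr, Jak1 and Stat3 changed in the first set, and Osmr and Cntfr in the second. For the mean Dex effect Il6st and Stat3 changed in the first set, and Osmr in the second. Genotype under Dex changed sign for Il6ra, Lifr, Jak1 and Stat3 in the first set, and for Cntfr in the second. The Dex effect in Cx30GRko mice did so for Il6st, Cntfr and Jak1 in the first set, and for Osmr in the second. That in control mice did so for Stat3 in the first set, and for Il6ra, Il6st and Osmr in the second. With quantile normalization again, Cntfr, Jak1 and Stat3 changed for Dex in Cx30GRko mice.

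Genes called over the whole table for the Dex effect in Cx30GRko mice (4), in control mice (3) and for the mean (33) were 0, 0 and 15 with a replicate block. They were 7, 38 and 101 in replicates 1 to 3 alone, 0, 0 and 0 in replicates 4 and 5 alone, 18, 58 and 129 with array weights, and 0, 1 and 20 with all 41345 probe sets kept. In Cx30GRko and control mice they were 0 and 7 without Cx30GRko Dex replicates 4 and 5, and 1 and 0 with only the groups compared. In Cx30GRko mice 2 were called with an array set block and 2 with quantile normalization again. The array set tests called 53 genes for Dex and 480 for genotype with array weights, and 0 genes and 0 members for genotype with the saline arrays alone.

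Leaving out 1 array at a time gave 0 to 6 genes in Cx30GRko mice, 0 to 5 in control mice, 18 to 35 for the mean Dex effect with 0 to 1 members, and 0 to 1 for the interaction and for genotype under saline. For the array sets it gave 226 to 1574 genes and 0 to 1 members for Dex, and 694 to 2025 genes and 1 to 3 members for genotype. The cause of these changes was not tested. The replicate block shares only numbers with the design. Signals of Lif and Socs3 lay below the median of all probe sets, which limits their values.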
